A study of Mus musculus with 4 samples.

Results

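The genes described here are 10 members of the calcium and NFAT signalling pathway: Stim1, Orai1, Itpr1, Itpr2, Itpr3, Ppp3ca, Ppp3cb, Nfatc1, Nfatc2 and Nfatc3. They were chosen by name, out of 21951 protein-coding genes of the GENCODE basic annotation of the mouse genome (mm10), with earlier results of these data known. All MIZ-1 ChIP-seq peaks were collected that lay in their gene bodies or promoters. A promoter was the stretch from 2000 bp before to 1000 bp after any annotated transcript start. This gave 23 of 34209 peaks called in MIZ-1WT cells and 70 of 78357 called in MIZ-1DPOZ cells.

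MIZ-1 (Zbtb17) is a zinc finger transcription factor with an N-terminal POZ domain, through which it pairs with itself and with other proteins. The study located MIZ-1 on the chromatin of splenic B cells with and without this domain. Cells were B220+ splenocytes, B220 being a surface marker of the B lineage, from mice of a C57BL/6 background aged 40 to 70 days. The antibody was Miz-1 H-190 for both ChIP libraries, and 1 ChIP and 1 input library were made per genotype. MIZ-1WT mice carried the intact protein. In MIZ-1DPOZ mice, MB1-Cre, a recombinase expressed from a B cell promoter, had removed the floxed POZ exons, so that only B lineage cells made the shortened protein, which keeps its zinc fingers. The number of mice behind each library is not given in the sources used here. The study found fewer follicular and relatively more marginal zone B cells in MIZ-1DPOZ spleens, so the cell mixtures differed as well, and their part in any difference was not tested. The peak lists cannot show which protein was present or which cells were in the sample. With no replicate, every difference between the lists is one between 2 libraries, and no p-value was computed.

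Antigen binding to the B cell receptor activates phospholipase C gamma, which releases IP3. IP3 opens its receptors (Itpr1, Itpr2, Itpr3) on the endoplasmic reticulum, and the fall of stored calcium is sensed by Stim1, which opens the plasma membrane channel Orai1. The calcium that enters activates calcineurin, a phosphatase with catalytic subunits encoded by Ppp3ca and Ppp3cb. Calcineurin dephosphorylates the NFAT transcription factors (Nfatc1, Nfatc2, Nfatc3), which then move to the nucleus.

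Promoter peaks at these genes lay in CpG-rich sequence, as the summit sequences show. A summit is the position of a peak with the most overlapping fragments. Printed are the bases within 100 bp of promoter summits that lay outside untranslated regions. They were cut where an untranslated region began, and a window that overlapped one already printed was left out. Nfatc1 was left out too. All are GRCm38 (mm10) plus strand, from RefSeq, so that Itpr2, Ppp3cb and Nfatc2 read against the direction of transcription. Capitals mark a GC box (GGGCGG, a Sp/KLF factor element) or a CCAAT box (CCAAT) on either strand, and runs of capitals can hold several overlapping matches. The searches for an E-box (CACGTG), a cAMP response element (TGACGTCA) and an NFAT core (TGGAAA) found no match in them.
Orai1, MIZ-1WT list, chr5:123014849-123015049: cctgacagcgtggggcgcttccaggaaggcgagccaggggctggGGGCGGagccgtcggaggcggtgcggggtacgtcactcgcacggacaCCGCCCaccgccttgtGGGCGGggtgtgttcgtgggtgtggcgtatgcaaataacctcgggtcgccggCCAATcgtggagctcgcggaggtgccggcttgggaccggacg
Orai1, MIZ-1DPOZ list, chr5:123015258-123015455: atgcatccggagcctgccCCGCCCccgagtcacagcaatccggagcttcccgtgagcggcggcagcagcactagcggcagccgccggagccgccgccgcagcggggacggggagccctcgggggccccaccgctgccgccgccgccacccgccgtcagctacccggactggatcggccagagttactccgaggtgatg
Itpr2, MIZ-1DPOZ list, chr6:146502224-146502402: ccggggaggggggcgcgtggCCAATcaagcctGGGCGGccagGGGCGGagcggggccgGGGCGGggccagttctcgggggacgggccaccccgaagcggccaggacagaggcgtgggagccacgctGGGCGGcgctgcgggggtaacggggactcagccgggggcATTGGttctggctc
Itpr2, MIZ-1DPOZ list, chr6:146501661-146501861: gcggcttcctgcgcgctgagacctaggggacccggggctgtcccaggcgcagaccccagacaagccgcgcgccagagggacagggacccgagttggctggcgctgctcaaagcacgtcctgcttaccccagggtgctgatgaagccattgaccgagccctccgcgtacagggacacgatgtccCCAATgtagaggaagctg
Ppp3ca, MIZ-1DPOZ list, chr3:136669660-136669860: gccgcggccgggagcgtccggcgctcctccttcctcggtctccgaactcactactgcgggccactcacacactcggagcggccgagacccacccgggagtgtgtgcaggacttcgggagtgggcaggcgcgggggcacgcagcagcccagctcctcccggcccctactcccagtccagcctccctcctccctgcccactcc
Ppp3ca, MIZ-1WT list, chr3:136671423-136671623: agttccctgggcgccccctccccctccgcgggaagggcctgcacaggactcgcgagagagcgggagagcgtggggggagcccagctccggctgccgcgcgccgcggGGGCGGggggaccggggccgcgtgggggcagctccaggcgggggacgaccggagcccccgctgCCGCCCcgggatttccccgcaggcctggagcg
Ppp3cb, MIZ-1DPOZ list, chr14:20545872-20546072: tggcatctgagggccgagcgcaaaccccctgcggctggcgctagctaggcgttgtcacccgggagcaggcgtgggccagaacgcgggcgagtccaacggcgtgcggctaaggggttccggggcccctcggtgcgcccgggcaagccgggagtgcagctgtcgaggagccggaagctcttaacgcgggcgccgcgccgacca
Nfatc2, MIZ-1DPOZ list, chr2:168590366-168590500: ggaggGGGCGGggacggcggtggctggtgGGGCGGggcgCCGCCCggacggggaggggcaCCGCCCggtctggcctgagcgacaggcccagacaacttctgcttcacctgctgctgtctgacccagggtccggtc
Nfatc3, MIZ-1WT list, chr8:106059961-106060161: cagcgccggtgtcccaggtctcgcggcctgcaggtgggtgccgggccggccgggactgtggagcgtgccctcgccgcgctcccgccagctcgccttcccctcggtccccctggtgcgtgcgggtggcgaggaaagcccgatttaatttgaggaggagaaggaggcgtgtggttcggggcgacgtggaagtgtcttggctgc
The Nfatc2 window and the Itpr2 window before the start held 4 GC boxes each, and the MIZ-1WT window of Orai1 held 3. The windows of Nfatc3 and the printed MIZ-1DPOZ windows of Ppp3ca and Ppp3cb held none of the 5 motifs. A match is a description of the letters and not evidence of a bound factor.

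A promoter peak was called for 7 of the 10 genes in the MIZ-1WT list and for 8 in the MIZ-1DPOZ list, and 6 had one in both. Over all protein-coding genes, the percentages were 30.9% for the MIZ-1WT list, 48.7% for the MIZ-1DPOZ list and 26.6% for both. Stim1 and Nfatc2 were called only in the MIZ-1DPOZ list, Itpr1 only in the MIZ-1WT list, and Itpr3 in neither. Base composition differed between called and uncalled genes over all protein-coding genes. The 1000 bp around the first start had a median GC content of 66.2% in the 10 genes (range 52.1% to 72.0%) and of 55.2% in all protein-coding genes. It was 62.5% in the protein-coding genes called in the MIZ-1WT list and 52.0% in those not called. For the MIZ-1DPOZ list these medians were 60.6% and 49.4%. Among the 10 genes, Nfatc3 (52.1%, the lowest) and Ppp3ca (72.0%, the highest) were called in both lists, and Itpr3 (64.3%) in neither. The promoter peaks of Nfatc3 lay outside these 1000 bp, at its other annotated start, 793 bp downstream. Within 100 bp of their summits the GC content was 70.6% (MIZ-1WT list) and 72.1% (MIZ-1DPOZ list). The part of base composition in the members' counts was not tested.

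**Figure D1:**
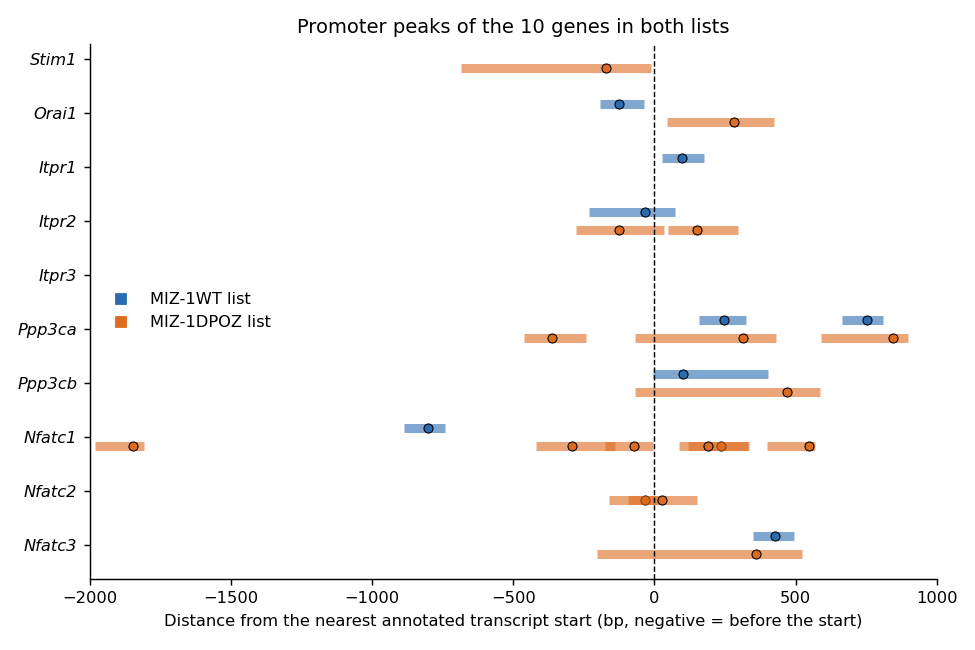
Bars show the extent and points the summit of every promoter peak of the 10 genes, in bp from the nearest annotated transcript start of that gene (MIZ-1WT list above in blue, MIZ-1DPOZ list below in orange). Summits lay within 500 bp of a start for 6 of 8 MIZ-1WT and 14 of 17 MIZ-1DPOZ promoter peaks, and bars of Nfatc1 and Nfatc2 drawn on top of each other belong to different starts.

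The genes of store-operated entry were examined first. Stim1 encodes the calcium sensor of the endoplasmic reticulum and spans chr7:102267806-102437319 on the plus strand. The MIZ-1WT list held no peak in its promoter. The MIZ-1DPOZ list held 1, from 102267641 to 102268316, which was 676 bp wide. Its summit lay in the 5′ untranslated region, 173 bp before the nearest of 3 starts. The fold enrichment over the local background was 7.24 and the −log10 q was 9.96, the highest of all promoter peaks of the 10 genes. The summit pileup, the number of fragments stacked there as solved from the deposited scores, was 16. At the depth of the MIZ-1WT library, that pileup would be 11.9 fragments, and the smallest pileup called there at the usual background was 5. How often a site of that height would go uncalled in a MIZ-1WT library was not tested.

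Orai1 encodes the pore of the calcium channel and spans chr5:123015074-123030456 on the plus strand. The MIZ-1WT peak lay from 123014880 to 123015038, just before the start, with its summit at −125 bp, a fold of 4.84 and 8 fragments. In the MIZ-1DPOZ list the peak ran from 123015120 to 123015496, with a fold of 6.83 and 16 fragments at a summit in the coding exon (+281 bp). The intervals were 81 bp apart and the summits 406 bp apart, so Orai1 was counted in both lists without a shared site. The noncoding gene Gm2479 starts nearby, and the MIZ-1DPOZ summit was nearer to its start than to that of Orai1. Orai1 had no other peak in either list. The 3 GC boxes and the CCAAT box of the MIZ-1WT window shown above lay on the upstream side.

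The 3 IP3 receptor genes differed from each other. Itpr1 (chr6:108213096-108551109, plus strand) had a MIZ-1WT promoter peak at +96 bp in the 5′ untranslated region. It had the lowest −log10 q (1.76) and the fewest fragments (6) of the promoter peaks of the 10 genes, with a fold of 3.76. No MIZ-1DPOZ peak lay in the Itpr1 promoter. At the depth of the MIZ-1DPOZ library, 6 fragments would be 8.04, and the smallest pileup called there at the usual background was 6. Whether a site of that height would go uncalled in a MIZ-1DPOZ library was not tested. Itpr2 (chr6:146108299-146502223, minus strand) had the MIZ-1WT promoter peak with the highest fold of the 10 genes, 7.47 at 13 fragments, from 146502106 to 146502409 with its summit at −33 bp. A MIZ-1DPOZ peak from 146502145 to 146502455 overlapped it by 265 bp, with a fold of 4.19 and 10 fragments. The ratio of MIZ-1DPOZ to MIZ-1WT pileups, scaled for depth, was 0.574 (exact binomial 95% interval 0.225 to 1.42). A further MIZ-1DPOZ peak with a fold of 4.33 lay after the start of Itpr2, with its summit at +151 bp. Itpr3 (chr17:27057304-27122223, plus strand) had no MIZ-1WT peak, and its MIZ-1DPOZ peak nearest to the start had its summit at +6631 bp. The 1000 bp around the start of Itpr3 had a GC content of 64.3%. The part of base composition in its lack of a promoter peak was not tested.

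Both calcineurin catalytic subunit genes had overlapping promoter peaks. Ppp3ca (chr3:136670124-136937727, plus strand) had MIZ-1WT peaks at +247 bp, with a fold of 4.46 and 9 fragments, and at +753 bp, with a fold of 5.07 and 10 fragments. Its MIZ-1DPOZ peaks lay at −364 bp with 12 fragments, at +314 bp with 10 fragments and at +847 bp with 15 fragments. The last pair of these overlapped the MIZ-1WT peaks, with depth-scaled ratios of 0.829 (0.303 to 2.31) and 1.12 (0.470 to 2.78). The −364 bp peak had no MIZ-1WT counterpart. Ppp3cb (chr14:20499364-20546573, minus strand) had 1 peak in each list. The MIZ-1WT peak, from 20546038 to 20546445, had a fold of 5.91 and 10 fragments with its summit at +102 bp. The MIZ-1DPOZ peak, from 20545855 to 20546509, contained it and had a fold of 6.39 and 14 fragments. The summits were 366 bp apart and the ratio was 1.04 (0.431 to 2.63). Both summits were nearest to the start of 1810062O18Rik, a gene that begins nearby.

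Among the NFAT genes, Nfatc3 (chr8:106058840-106130537, plus strand) had a shared promoter site. Its MIZ-1WT peak had a fold of 5.38 and 9 fragments at +428 bp. The MIZ-1DPOZ peak had a fold of 5.96 and 13 fragments at +360 bp, and the ratio was 1.08 (0.426 to 2.86). Nfatc2 (chr2:168476410-168601657, minus strand) has starts that form separate promoters, and the MIZ-1DPOZ list held a peak at each. The peak at +28 bp of the upstream promoter had a −log10 q of 6.05 and 14 fragments, and the peak at −35 bp of the downstream promoter had a −log10 q of 3.37 and 9 fragments. No MIZ-1WT peak lay in either promoter. At MIZ-1WT depth, 14 fragments would be 10.4.

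Nfatc1 (chr18:80606205-80713071, minus strand) had the most promoter peaks. Its inducible short isoform starts at the upstream promoter, and some of its other isoforms start at the downstream one. The MIZ-1WT list held 1 peak, at −804 bp from a start, with a fold of 5.25 and 11 fragments. The MIZ-1DPOZ list held 6. Of these, the peaks at −1846, −72 and +189 bp lay at the upstream promoter, with 12, 12 and 19 fragments. Those at −292, +237 and +549 bp lay at the downstream promoter, with 13, 12 and 9 fragments. The nearest of the 6 was 565 bp from the MIZ-1WT peak, so Nfatc1, like Orai1, was counted in both lists without a shared site. The MIZ-1DPOZ pileup of 19 would be 14.2 fragments at MIZ-1WT depth. The MIZ-1WT pileup of 11 would be 14.7 at MIZ-1DPOZ depth.

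When promoter peaks had to reach a −log10 q of 5, Itpr2 and Ppp3cb, 2 of the 10 genes, were still called in the MIZ-1WT list, beside 9.77% of protein-coding genes. For MIZ-1DPOZ, 7 of the 8 were still called, all but Itpr2, beside 33.3%. Ppp3cb alone was still called in both. The median −log10 q was 4.08 at the 8 MIZ-1WT promoter peaks and 3.79 at all 7586 MIZ-1WT promoter peaks of protein-coding genes. For MIZ-1DPOZ it was 4.16 at 17 peaks and 5.13 at 13153.

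Peaks inside the genes were then examined. The MIZ-1WT list held 15 peaks in the gene bodies outside the promoters, 12 with summits in introns and 3 in coding exons. The MIZ-1DPOZ list held 53, 47 in introns and 6 in coding exons. Per 100 kb of gene, promoters included, the 10 genes together had 1.44 MIZ-1WT and 4.37 MIZ-1DPOZ peaks. Over all protein-coding genes, which were shorter (median 17.4 kb, against 116 kb), the values were 1.73 and 3.80. Medians per gene were 1.44 and 4.39 in the 10 genes, and 1.30 and 3.61 in protein-coding genes of 15 kb or more. The MIZ-1DPOZ list held more peaks than the MIZ-1WT list at 6 of the 10 genes (Stim1, Itpr1, Itpr2, Itpr3, Nfatc1 and Nfatc2) and as many at Orai1, Ppp3ca, Ppp3cb and Nfatc3. Among protein-coding genes of 15 kb or more, 62.5% had more MIZ-1DPOZ peaks, so a count of 6 in 10 was close to the background.

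**Figure D2:**
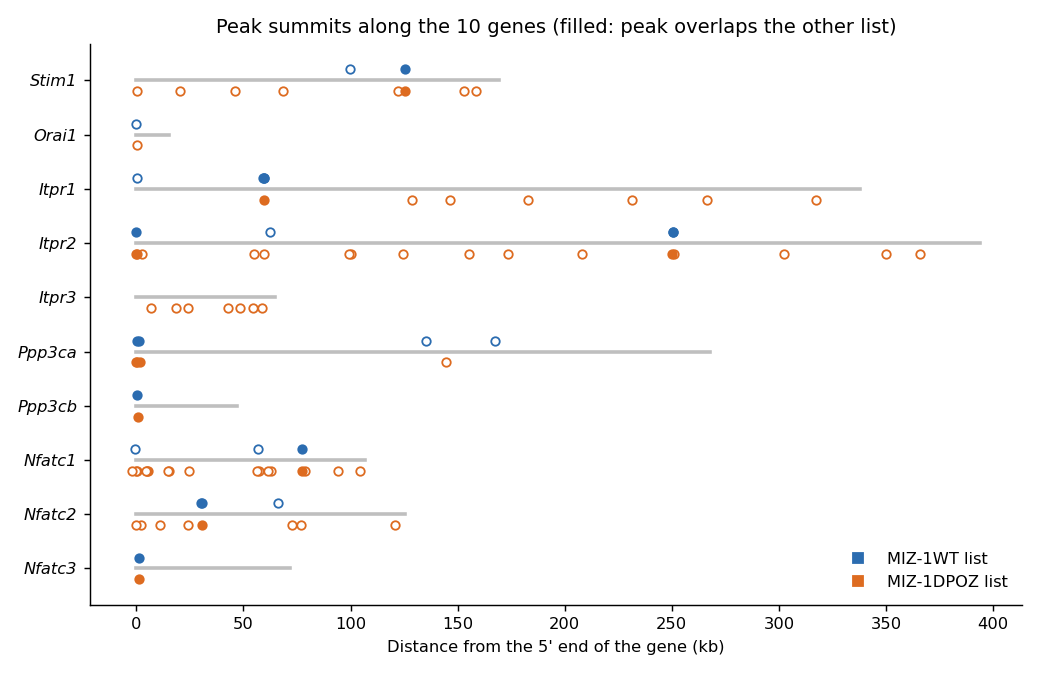
Each grey line is a gene drawn from its 5′ end (0 kb) to its 3′ end, with MIZ-1WT summits above and MIZ-1DPOZ summits below. Filled points mark peaks that overlap the other list: 14 of 23 MIZ-1WT peaks and 10 of 70 MIZ-1DPOZ peaks.

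The difference in number was largest at Nfatc1, which had 3 MIZ-1WT and 17 MIZ-1DPOZ peaks, or 2.81 and 15.9 per 100 kb, and 3.31% of protein-coding genes of 15 kb or more reached that MIZ-1DPOZ density. Itpr3 had 0 and 7, and its 10.8 per 100 kb was reached by 10.1% of those genes. Itpr2, the longest of the 10, had 4 and 16, Stim1 had 2 and 8, and Nfatc2 had 3 and 8. Itpr1 had 4 and 7. The numbers were equal at Ppp3ca with 4 in each list, and at Orai1, Ppp3cb and Nfatc3 with 1 in each. When the MIZ-1DPOZ list was shortened to the length of the MIZ-1WT list by −log10 q, it held 23 peaks at the 10 genes, as many as the MIZ-1WT list. At that length Nfatc1 had 4 MIZ-1DPOZ peaks, Stim1 and Itpr3 had 1 each, and Itpr2 had 8.

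**Figure D3:**
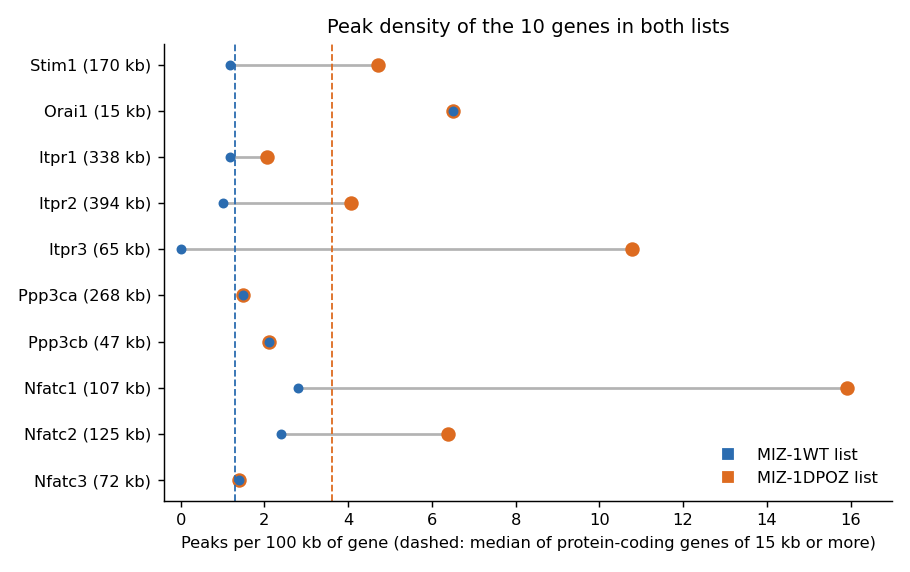
Points give the number of peaks per 100 kb of each gene in the MIZ-1WT list (small, blue) and the MIZ-1DPOZ list (large, orange), with gene length in brackets. Dashed lines are the medians of protein-coding genes of 15 kb or more, 1.30 and 3.61. Nfatc1 lay farthest to the right at 15.9 in the MIZ-1DPOZ list, and 4 genes had the same value in both lists.

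Of the 23 MIZ-1WT peaks, 14 overlapped a MIZ-1DPOZ peak by at least 1 bp (60.9%, 95% Wilson interval 40.8 to 77.8), and the share was 53.7% over the whole list. Of the 70 MIZ-1DPOZ peaks, 10 overlapped a MIZ-1WT peak (14.3%, 7.95 to 24.3), beside 22.1% over the whole list. At promoters, 5 of 8 MIZ-1WT peaks and 5 of 17 MIZ-1DPOZ peaks overlapped, beside 73.3% and 41.2% of promoter peaks of protein-coding genes. Intervals cover counting error only. Because a wide peak of one list can cover several of the other, the 14 overlapping pairs rested on 10 MIZ-1DPOZ peaks.

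The peaks with the most fragments in the 10 genes lay in an intron of Itpr1. There 3 MIZ-1WT peaks, at +58901, +59273 and +59668 bp with 16, 17 and 17 fragments, lay under 1 MIZ-1DPOZ peak from 108271917 to 108273228, with a fold of 7.66, a −log10 q of 29.9 and 57 fragments. The depth-scaled ratios were 2.66 (1.505 to 4.96) at the first and 2.50 (1.43 to 4.59) at each of the others. These were the only 3 of 14 pairs whose interval excluded equality. All 3 used the same MIZ-1DPOZ pileup, so they are not independent, and its summit lay 694, 322 and 73 bp from the MIZ-1WT summits. All 4 summit windows were 100% repeat-masked, and the summit sequences occurred 161 to 1157 times in the genome, so fragments of this locus cannot be told apart from those of other copies. In an intron of Itpr2, MIZ-1WT peaks at +250111 and +250373 bp, of 8 fragments each, lay under a MIZ-1DPOZ peak of 21 fragments. The MIZ-1WT summit windows were 31.3% and 22.9% repeat-masked, and the MIZ-1DPOZ window 81.6%. Both ratios were 1.96 (0.833 to 5.11), and 2 of these 3 summits had more than 1 copy. The overlapping peaks of the Stim1 intron, with 6 and 10 fragments, were repeat-masked and multi-copy, like those of Itpr1.

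Body peaks with single-copy summits in both lists lay in coding exons of Nfatc1 and Nfatc2. At Nfatc2, MIZ-1WT peaks at +19300 and +18787 bp with 9 and 13 fragments lay at the site of a MIZ-1DPOZ peak with 15 fragments, from 168570779 to 168571395. The ratios were 1.24 (0.510 to 3.22) and 0.861 (0.382 to 1.97). Both used the same MIZ-1DPOZ pileup, so they are not independent, and the MIZ-1DPOZ summit lay 103 and 410 bp from the MIZ-1WT summits. This MIZ-1DPOZ peak, with a fold of 6.22, had a −log10 q of 7.98, higher than that of either Nfatc2 promoter peak (6.05 and 3.37), and an E-box lay within 100 bp of its summit and of 1 of the MIZ-1WT summits. At Nfatc1, a MIZ-1WT peak of 11 fragments and a MIZ-1DPOZ peak of 14 fragments overlapped in a coding exon, at +72345 and +72267 bp, with a ratio of 0.949 (0.400 to 2.31). Over the 8 pairs with single-copy summits, the ratios ranged from 0.574 to 1.24 and every interval included equality. Over the 6 other pairs they ranged from 1.24 to 2.66.

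**Figure D4:**
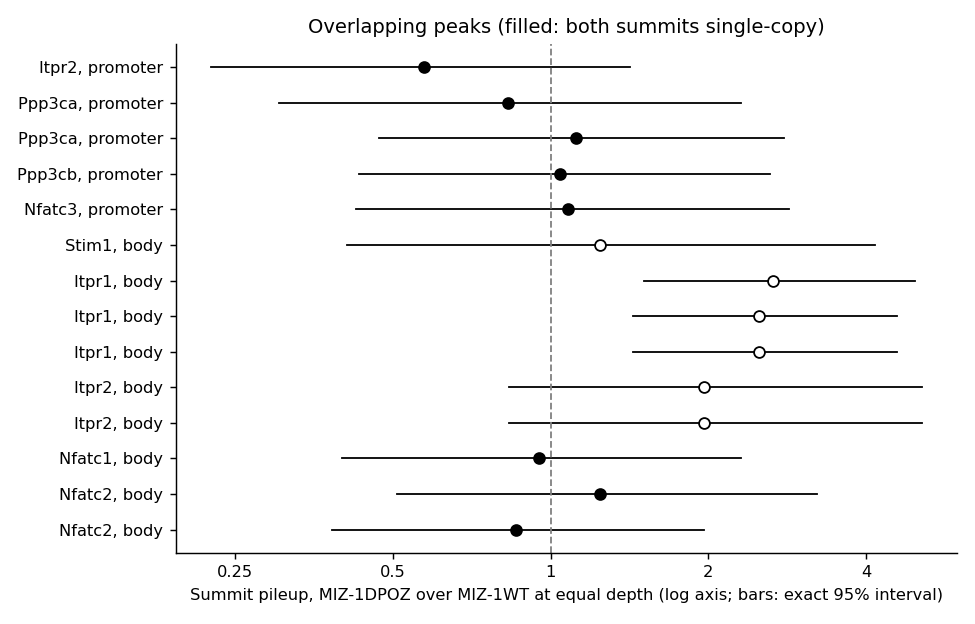
Points give the MIZ-1DPOZ summit pileup divided by the MIZ-1WT summit pileup, after division by the depth ratio of the libraries (1.34), for the 14 overlapping pairs. Bars are exact 95% intervals for counting error, on a log axis. Filled points, with a single-copy summit in both lists, lay between 0.574 and 1.24. Only the 3 pairs in the Itpr1 intron, which share 1 MIZ-1DPOZ peak, excluded 1.

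The remaining strongest body peaks lay in introns. For Itpr3 it was a MIZ-1DPOZ peak at +24047 bp with a −log10 q of 6.21, although a coding exon peak at +54441 bp had more fragments, 17 against 14, over a higher background. For Itpr2 in the MIZ-1WT list it was the peak at +61952 bp with a −log10 q of 5.05. The strongest Nfatc1 body peak was a MIZ-1DPOZ peak at +19858 bp with a −log10 q of 7.89. In Stim1, peaks at +19795 and +152465 bp shared a −log10 q of 5.96 below that of the promoter, and in Ppp3ca the only MIZ-1DPOZ body peak had 4.19. The MIZ-1WT body peaks of Ppp3ca at +134692 and +166658 bp had 7 fragments each.

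Summits of promoter peaks had higher median GC and CpG content than those of body peaks, with overlapping ranges. Median GC content within 100 bp of the summit was 73.1% at the 8 MIZ-1WT promoter peaks (range 61.2% to 80.6%) and 62.2% at the 15 body peaks (41.8% to 69.2%). In the MIZ-1DPOZ list it was 73.6% at 17 promoter peaks (66.2% to 78.6%) and 61.2% at 53 body peaks (35.8% to 71.6%). CpG dinucleotides, as observed over expected from base content, had medians of 0.81 and 0.15 in the MIZ-1WT list and of 0.77 and 0.26 in the MIZ-1DPOZ list. All promoter peaks of protein-coding genes had median GC contents of 73.6% and 70.6%, so those of the 10 genes were alike in this respect. No promoter summit of the 10 genes was repeat-masked over more than 50% or had a second copy in the genome. Among body peaks, 8 of 15 MIZ-1WT and 18 of 53 MIZ-1DPOZ peaks were over 50% masked. Over all body peaks of protein-coding genes, 63.7% and 48.6% were.

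**Figure D5:**
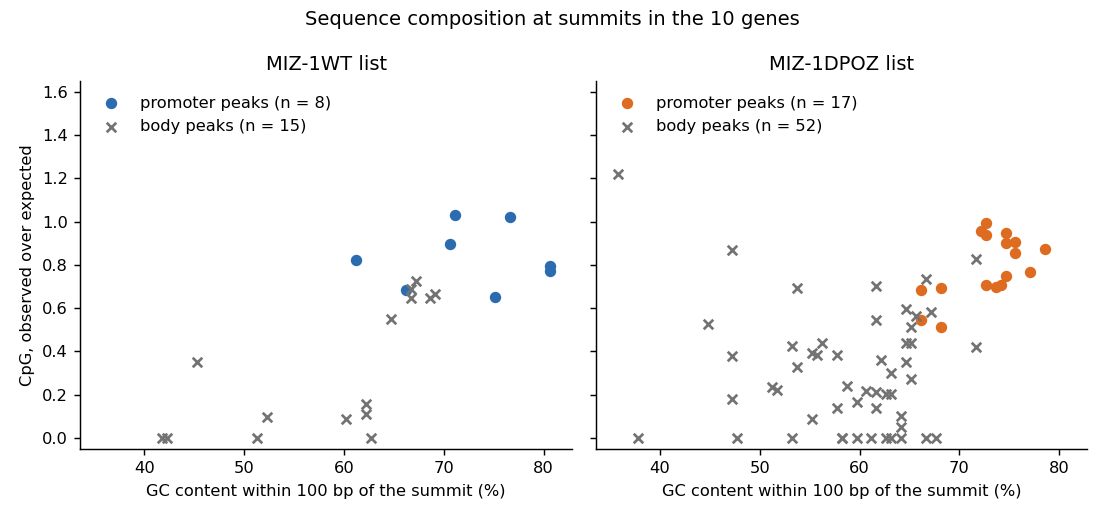
Each point is a summit in 1 of the 10 genes, by GC content (x axis, %) and CpG observed over expected (y axis) within 100 bp, for the MIZ-1WT list (left) and the MIZ-1DPOZ list (right). Promoter peaks (filled circles) lay between 61.2% and 80.6% GC in the left panel and between 66.2% and 78.6% in the right, body peaks (crosses) between 41.8% and 69.2% and between 35.8% and 71.6%, so that the ranges overlapped, and 1 MIZ-1DPOZ body peak in which no CpG was expected is not drawn.

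Over both lists, 16 of 25 promoter summits of the 10 genes had at least 1 of the 5 motifs within 100 bp, 4 of 8 in the MIZ-1WT list and 12 of 17 in the MIZ-1DPOZ list. All promoter peaks of protein-coding genes had one in 71.2% and 65.1% of cases. A GC box was found at 4 MIZ-1WT summits and 11 MIZ-1DPOZ summits, beside 65.05% and 56.2% of all such promoter peaks. A CCAAT box was found at 2 and 2, beside 9.29% and 9.91%. The NFAT core was found at 0 and 2, the latter at Nfatc1, beside 4.30% and 5.63%. No E-box and no cAMP response element was found at these promoter summits, and 4.63% and 3.79% of all promoter peaks had an E-box.

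Other genes of the pathway were counted by role, from a list of 32. Of these, 18 were called in the MIZ-1WT list, 31 in the MIZ-1DPOZ list and 18 in both, beside the 30.9%, 48.7% and 26.6% of all protein-coding genes. Their starts had a median GC content of 63.8%. All 3 NFAT kinase genes had a promoter peak in both lists, as did the other NFAT family genes, Nfatc4 and Nfat5. The list also held Itpka, Itpkb and Itpkc, which encode kinases of IP3, and Inpp5d, which encodes a lipid phosphatase that does not act on IP3 itself. None of these 4 had a MIZ-1WT promoter peak and all 4 had a MIZ-1DPOZ one. For phospholipase C gamma, Plcg2, the form used by the B cell receptor, was called in both lists and Plcg1 only in the MIZ-1DPOZ list. Of the calcium pumps, 2 of 4 had a MIZ-1WT promoter peak and 4 of 4 a MIZ-1DPOZ one. Of the calcineurin inhibitors and anchors, 2 of 5 and 5 of 5 did, and of the release and uptake partners 2 of 3 and 3 of 3.

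Close relatives of the 10 genes varied. Stim2, the other calcium sensor, had an overlapping promoter peak in both lists, with 7 MIZ-1WT and 12 MIZ-1DPOZ fragments, unlike Stim1. Orai3 had 7 and 15 fragments at its highest promoter peaks, and Orai2 had a MIZ-1DPOZ promoter peak only, with 11 fragments. Ppp3cc, the third catalytic subunit gene of calcineurin, had 10 and 9, and Ppp3r1, its regulatory subunit gene, had a MIZ-1DPOZ promoter peak only, with 18. Nfatc4 had 10 and 15, and Nfat5, the NFAT protein that calcineurin does not control, had 12 and 18.

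The largest −log10 q values at promoters of the 32 genes in the MIZ-1WT list belonged to Tmbim4 (21.1), Csnk1a1 (9.51), Atp2a2 (6.75), Rcan3 (6.64) and Nfat5 (5.81). Among the highest in the MIZ-1DPOZ list were those of Rcan1 (12.7), Ppp3r1 (12.1), Nfat5 (10.7) and Calm3 (9.85). Tmbim4 encodes a membrane protein of the calcium stores, and its MIZ-1WT pileup of 24 fragments was above that of every promoter peak of the 10 genes, the highest of which was 13 in that list. Rcan1, a calcineurin inhibitor whose induction by NFAT makes it a feedback regulator, had no MIZ-1WT promoter peak and 19 MIZ-1DPOZ fragments.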

How the data were processed

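Per the study's methods, MIZ-1 ChIP-seq reads were trimmed with Trimmomatic and aligned to mm10, and peaks were called with MACS2. A list of narrow peaks was deposited for each genotype, and the control used in calling is not given in the sources used here. The submitters' processing notes name Bowtie2 2.2.6 and MACS2 2.1.0, whereas the methods name another aligner and MACS2 release. The deposited lists give, per peak, the fold enrichment (a ratio) and the −log10 of a p-value and q-value, as computed by the authors. The smallest −log10 q was 1.03 for MIZ-1WT and 1.01 for MIZ-1DPOZ. The reads and input libraries were not analysed here.

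Summit pileup and background were solved from fold and −log10 p under MACS2's formulas, for 99.97% and 99.99% of peaks. Library depth came from the most frequent background (0.860 and 1.35 fragments) divided by the smallest peak width (148 and 173 bp), which made the MIZ-1DPOZ library 1.34 times deeper. The ratio of the backgrounds themselves was 1.57. Scaled by it instead, every pair ratio was lower, and MIZ-1DPOZ pileups put at MIZ-1WT depth would be lower too. Median pileups were 9 and 12 fragments. Genes came from GENCODE vM21 basic. A summit was single-copy when the median genomic count of 5 sequences of 50 bases was 1. Repeats were read from soft-masking. Coordinates are 1-based. Overlap required 1 bp. Ratios carry exact binomial and shares Wilson 95% intervals, both for counting error only.

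The 10 genes, the 32 other pathway genes and the motifs were chosen with earlier results of these data known. All 10 were named with every promoter peak. Body peaks were described singly where they overlapped between lists or were the strongest of a gene. Of the other pathway genes, close relatives were named, and for each list the 5 with the largest promoter −log10 q. A gene and a summit sequence that these rules select are not reported here. Planted promoter peaks and simulated scores were recovered in tests on simulated data. Alternatives were stricter cutoffs, other windows and overlaps, lists of equal length, and removal of repeat or multi-copy summits. Scripts ran in Python 3.11.15 with scipy 1.17.1, pandas 2.3.3 and numpy 2.4.6.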

Additional observations from a re-analysis of the deposited data

How the results depend on the processing

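Of 90 values recomputed under the alternatives, 69 stayed within 1.5 times the reported count, or within the interval or spread of the reported value. Single-copy summits and a summit inside the window changed no count by more than that. With −log10 q cut at 5, 2 genes kept a MIZ-1WT promoter peak and 1 kept one in both lists; the 10 genes then had 8 MIZ-1WT and 39 MIZ-1DPOZ peaks, 7.69% of the latter overlapped a MIZ-1WT peak, 6 of the other pathway genes had a MIZ-1WT promoter peak, and 6 promoter summits had a motif. A fold of at least 5 left 11 and 37 peaks, and 10 and 20 other pathway genes. Without repeat peaks, 15 MIZ-1WT peaks remained. At equal numbers of peaks, 23 MIZ-1DPOZ peaks were left, 30.4% of them overlapped, and 16 other pathway genes had a MIZ-1DPOZ promoter peak. For a fold of at least 5 and for equal numbers of peaks, the shares over all protein-coding genes are not given. The counts of other pathway genes at these settings therefore cannot be set against a background. With 50% reciprocal overlap, the overlapping shares were 17.4% for MIZ-1WT and 5.71% for MIZ-1DPOZ, and with summits within 100 bp the MIZ-1WT share was 30.4%. Within 50 bp of the summit, 10 promoter summits had a motif. The median log2 pileup ratio at the 5 overlapping promoter pairs, 0.062, reversed to −0.16 when scaled by background and to −0.082 for pairs with summits within 100 bp; it has no direction that can be read. Assigned to the nearest start, Ppp3cb lost its promoter peak in both lists and Orai1 lost its MIZ-1DPOZ one. The causes of these shifts were not tested, beyond the settings' own removal of peaks. Peaks of 6 to 19 fragments at these promoters leave wide intervals. No paired analysis was possible because no result comes from a test and each genotype has 1 ChIP library, so no replicate could be left out.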
